A study of Mus musculus with 28 samples.

Results

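The genes described here encode the epidermal growth factor (EGF) receptor Egfr, its partner receptors Erbb2 and Erbb3, and 6 ligands of this family, namely Btc (betacellulin), Areg (amphiregulin), Ereg (epiregulin), Epgn (epigen), Hbegf (heparin-binding EGF-like growth factor) and Tgfa (transforming growth factor alpha). They were taken by symbol from the array annotation. Of the 9 symbols, 8 had a probe among the 19532 named genes, with 21 of the 32664 probes that carry 1 symbol. Areg had none and is not analysed here. Epgn was measured in 21 mice and in only 1 syngeneic Il4ra-deficient mouse, so 7 genes could be tested. The genes were chosen by symbol as the family of Btc, and Btc was selected on its low values after allogeneic transfer in Rag2-/- recipients. The values of those mice are therefore given as a description with no test. Tests are given for the other recipients, which hold no mouse of that comparison. The Rag2-/- mice still enter the spread that all 6 groups share in the fit, so these tests are not fully independent of them.

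The study, whose title names IL13 and CCL2 in an inflammatory subset of scleroderma, modelled the disease as chronic graft-versus-host disease in mice. Spleen cells of B10.D2 mice (allogeneic, called allo) or balb/c mice (syngeneic, called syn) were given to balb/c-background recipients, and skin was taken 2 weeks later. Every recipient lacked Rag2, which T and B cells need to form, so T and B cells in the skin could come from the donor only. Recipients lacked Rag2 alone (4 syn and 5 allo mice), Rag2 and Il13 (4 and 4), or Rag2 and Il4ra, a receptor chain for IL-4 and IL-13 (3 and 4), and the sources used here give no ages. The donors are labelled by strain alone, so the labels place the Il13 and Il4ra deletions in the recipient's cells and not in the transferred cells. The 24 mice were measured on 28 arrays with a dye for each of skin and reference, against a reference RNA pooled from mouse cell lines. Levels are log2 ratios of the skin signal to the reference signal, so 0 means equal signal in both, and 1 unit is a factor of 2 if the log base is 2, which is a reading of the values on which each fold rests. Since each probe has its own ratio to the reference, levels are compared between mice and not between genes. All 9 basal and all 10 differentiating keratinocyte genes listed had a median above 0 over the mice. The direction of the ratio rests in part on this, so it is no separate check of the skin label.

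EGF family ligands are made as membrane proteins and are cut free by proteases such as ADAM17. Btc, Areg, Ereg, Epgn, Hbegf and Tgfa bind the EGF receptor, and Btc, Ereg and Hbegf also bind Erbb4. Erbb2 has no known ligand and Erbb3 has a weak kinase, so both signal mainly in pairs with another receptor of the family. In skin the EGF receptor is active chiefly in keratinocytes and hair follicles, where it governs growth, survival and differentiation.

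Of the ligand genes, 4 stand next to each other on mouse chromosome 5, in the order Epgn, Ereg, Areg and Btc among protein-coding genes. The promoter windows of 2 genes are shown because Btc and Egfr are the members that fell with allogeneic cells in a tested comparison. Each has 300 bases around the gene start, written 5′ to 3′ on the gene's own strand, as RefSeq gives it for GRCm38.p6. The Btc window lies at chr5:91402945-91403244 on the minus strand, and that of Egfr at chr11:16751953-16752252 on the plus strand. Capitals mark a match to a motif searched.
Btc: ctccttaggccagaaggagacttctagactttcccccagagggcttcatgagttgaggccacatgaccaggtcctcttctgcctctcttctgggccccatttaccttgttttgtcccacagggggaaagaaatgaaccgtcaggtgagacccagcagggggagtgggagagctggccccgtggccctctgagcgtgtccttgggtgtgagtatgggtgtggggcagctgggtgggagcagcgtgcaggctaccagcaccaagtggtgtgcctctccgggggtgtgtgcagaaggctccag
Egfr: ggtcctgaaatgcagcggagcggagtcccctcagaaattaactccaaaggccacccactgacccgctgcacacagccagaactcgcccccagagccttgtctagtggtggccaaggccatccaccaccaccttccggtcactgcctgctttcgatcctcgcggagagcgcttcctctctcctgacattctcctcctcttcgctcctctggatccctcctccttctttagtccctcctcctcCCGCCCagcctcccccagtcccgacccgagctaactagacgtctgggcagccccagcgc
The Btc window was 60.3% G and C with 5 CpG, and the Egfr window 62.3% with 15, against medians of 52.7% and 7 over all 32851 windows. On either strand, 4 motifs were searched: the STAT6 site, TTC and GAA with 4 bases between them (in 6.95% of all windows), the interferon-stimulated element, TTTC and TTTC with 2 bases between them (3.44%), the AP-1 site TGANTCA (7.81%) and the GC box GGGCGG (35.66%). Egfr held 1 GC box, on the opposite strand from base 242 of the window, and Btc held no match. A match is a description of the letters, and neither the windows nor the motifs were tested against the expression values.

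Btc was lower in skin after allogeneic than after syngeneic transfer in all 3 kinds of recipient, and in each of them no allo mouse overlapped a syn mouse. It fell 4.08-fold in Il13-deficient and 4.11-fold in Il4ra-deficient recipients. In the Rag2-/- mice that drew attention to the gene the difference was 7.49-fold. In the syn Rag2-/- mice Btc stood at 3.91, 4.29, 4.41 and 4.58 (mean 4.30 ± 0.28 SD, n = 4). In the allo Rag2-/- mice it stood at 0.71, 1.15, 1.55, 1.72 and 1.85 (1.39 ± 0.46 SD, n = 5). The groups lay far apart: the highest allo mouse was more than 2 log2 units below the lowest syn mouse.

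Among Il13-deficient recipients the syn mice had Btc at 1.57, 2.36, 3.14 and 3.83 (2.73 ± 0.98 SD, n = 4) and the allo mice at 0.06, 0.27, 0.97 and 1.49 (0.70 ± 0.65 SD, n = 4). The groups did not overlap, but the lowest syn mouse, 6234, came close to the highest allo mouse. Btc fell by 2.03 (SE 0.39, 95% interval -2.83 to -1.22, limma adjusted p = 0.000743). Among Il4ra-deficient recipients Btc was 3.33, 4.26 and 4.50 in syn mice (4.03 ± 0.62 SD, n = 3) and 1.85, 1.96, 2.02 and 2.12 in allo mice (1.99 ± 0.11 SD, n = 4). These groups were separate too, and the allo mice were the most uniform of the 6 groups. Here Btc fell by 2.04 (SE 0.42, 95% interval -2.91 to -1.17, adjusted p = 0.00332). Less Btc RNA per cell and fewer Btc-expressing cells cannot be told apart in whole skin. With only the 2 compared groups in the limma fit, and so no Rag2-/- mice, the Il13-deficient call ended (adjusted p = 0.0555). The Il4ra-deficient call stayed in such a fit (adjusted p = 0.00405). Both calls ended when the dim, mostly unmeasured other Btc probe was averaged in (-1.74, adjusted p = 0.0734, and -1.86, adjusted p = 0.104). With the number series (the leading digits of the mouse number, which may mark a batch) as a block the Il4ra-deficient fall was 2.09 (adjusted p = 0.00491). Within series 45 (2 allo, 1 syn) the difference was -2.51 and within series 57 (2 allo, 2 syn) -1.80, while all Il13-deficient mice share a series. With exact 0 kept as a value the falls were 1.22 and 1.06, both still past the threshold. The probe used for Btc had no exact 0. This setting averaged in the other Btc probe, with its unmeasured arrays counted as 0.

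**Figure D1:**
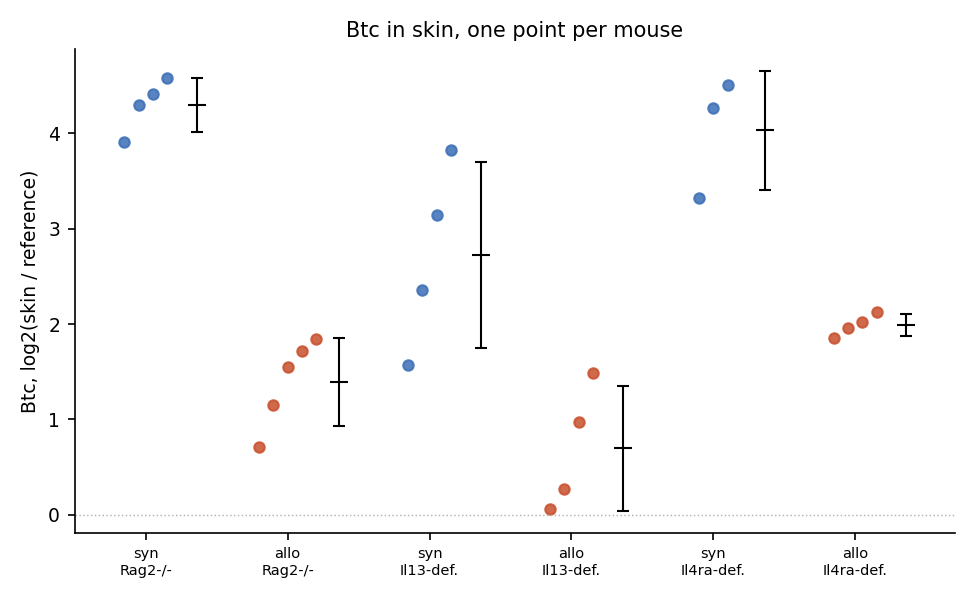
Btc by group: log2 of skin over reference on the vertical axis, the 6 groups on the horizontal axis, 1 point per mouse sorted by value (blue syn, red allo), with the mean and SD beside the points. Every allo mouse lies below every syn mouse of the same recipient genotype, and the syn Il13-deficient mice spread from 1.57 to 3.83.

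The fall of Btc did not differ detectably between the 2 deficient recipients. The donor difference in Il4ra-deficient mice minus that in Il13-deficient mice was -0.01 (SE 0.57, adjusted p = 0.996), with a 95% interval of -1.20 to 1.17 that leaves room for a difference of about that size either way. The Btc level itself was higher in Il4ra-deficient than in Il13-deficient mice under both donors. With allogeneic cells all 4 Il4ra-deficient mice lay above all 4 Il13-deficient mice, by 1.29 (SE 0.39), but this did not pass over all genes (unadjusted p = 0.00314, adjusted p = 0.891). With syngeneic cells the difference was 1.30 (SE 0.42, adjusted p = 0.0963), with overlap. Without syn mouse 6225 it was 1.67 and passed (adjusted p = 0.0109), without 6234 it was 0.92 (adjusted p = 0.372), and without both 6229 and 6234 it was 0.54 (adjusted p = 1). With the dim other probe averaged in it was 0.81 (adjusted p = 0.555), and 0.37 (adjusted p = 0.507) when the exact 0 values of that probe were kept as well. The size of this syn difference is not settled. All Il13-deficient mice carry numbers of a series that no other recipient has, so recipient genotype and number series cannot be told apart here.

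In order of mean Btc, the groups ran syn Rag2-/-, syn Il4ra-deficient, syn Il13-deficient, allo Il4ra-deficient, allo Rag2-/- and allo Il13-deficient. Neighbours in this order overlapped, except that the allo Il4ra-deficient mice all lay above the allo Rag2-/- mice, by 0.60 in the mean. All 4 syn Il13-deficient mice lay below all 4 syn Rag2-/- mice, by 1.57 in the mean. These recipient differences involve Rag2-/- mice and were not tested.

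Precision differs between the groups. The Btc value comes from 1 of its 2 probes, A_52_P672689, which was measured on all 28 arrays. On 8 arrays its ratio was a value that at least 30 probes of that array shared, as dim spots give; 7 of these were among the 14 allo arrays and 1 among the 14 syn arrays, that of mouse 6234. No background bound can be set, since spot intensities were not analysed here, and the fold differences are ratios as deposited. With such values treated as not measured the falls were 1.73 (adjusted p = 0.00353) and 2.08 (adjusted p = 0.000783). The Il13-deficient fall then lacked allo mice 6223 and 6224, the second array of 6232, and syn mouse 6234. It rested on allo mice 6226 (1.49) and 6232 (1.26) against syn mice 6225, 6229 and 6230. The Il4ra-deficient fall lacked allo mouse 5718. The 2 arrays of allo Il13-deficient mouse 6232 gave 1.26 and -1.14, the latter a shared value, whereas the 3 arrays of syn Rag2-/- mouse 5702 gave 4.47, 3.54 and 3.73 and the 2 of mouse 5703 gave 4.51 and 4.31. With the second array of 6232 alone the Il13-deficient fall was 2.33 (adjusted p = 0.00105).

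The cell composition of the skin moved with the donor as well. The T cell list (8 of 10 genes measured) had means of -0.98 to -0.36 in the 11 syn mice and 1.39 to 3.20 in the 13 allo mice. The macrophage and monocyte list (9 of 10) had -0.45 to 1.90 and 2.91 to 4.32. Sebaceous gland genes (8 of 9) were lower in allo mice, by 1.17 in Rag2-/-, 0.52 in Il13-deficient and 0.50 in Il4ra-deficient recipients in the mean. Basal keratinocyte genes (9 of 9), from cells in which the receptor is active, differed by -0.52, 0.14 and -0.06 in the same order, and skeletal muscle genes (9 of 9) by -0.84, 0.30 and -0.26. Hair follicle genes (13 of 16) differed by 1.04, -3.98 and 0.23, and adipocyte genes (8 of 9) by -1.14, -0.15 and -0.53. The part of cell composition in the Btc fall was not tested.

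Within the syn Il13-deficient group Btc was high in mice 6225 (3.83) and 6230 (3.14) and low in 6229 (2.36) and 6234 (1.57). The skeletal muscle list was high in the same mice, at 5.76 and 5.90 against 4.82 and 4.66. This was not particular to muscle. Adipocyte genes were at 6.04 and 5.92 against 5.29 and 5.18, and basal keratinocyte genes at 3.96 and 4.08 against 3.30 and 3.31. The differentiating keratinocyte, sebaceous gland, macrophage and T cell lists split in the same way, and the fibroblast list overlapped. Hair follicle genes ran the other way, at 2.48 and 3.96 against 4.52 and 5.30. So did genes of dividing cells, at -2.91 and -1.82 against -1.04 and -1.15. Hair follicle means of allo Il13-deficient mice were -0.52 to 0.44. Without mice 6229 and 6234 the Il13-deficient fall of Btc was 2.79 (adjusted p = 5.33e-05). The part of tissue content in the Btc level of these mice was not tested.

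**Figure D2:**
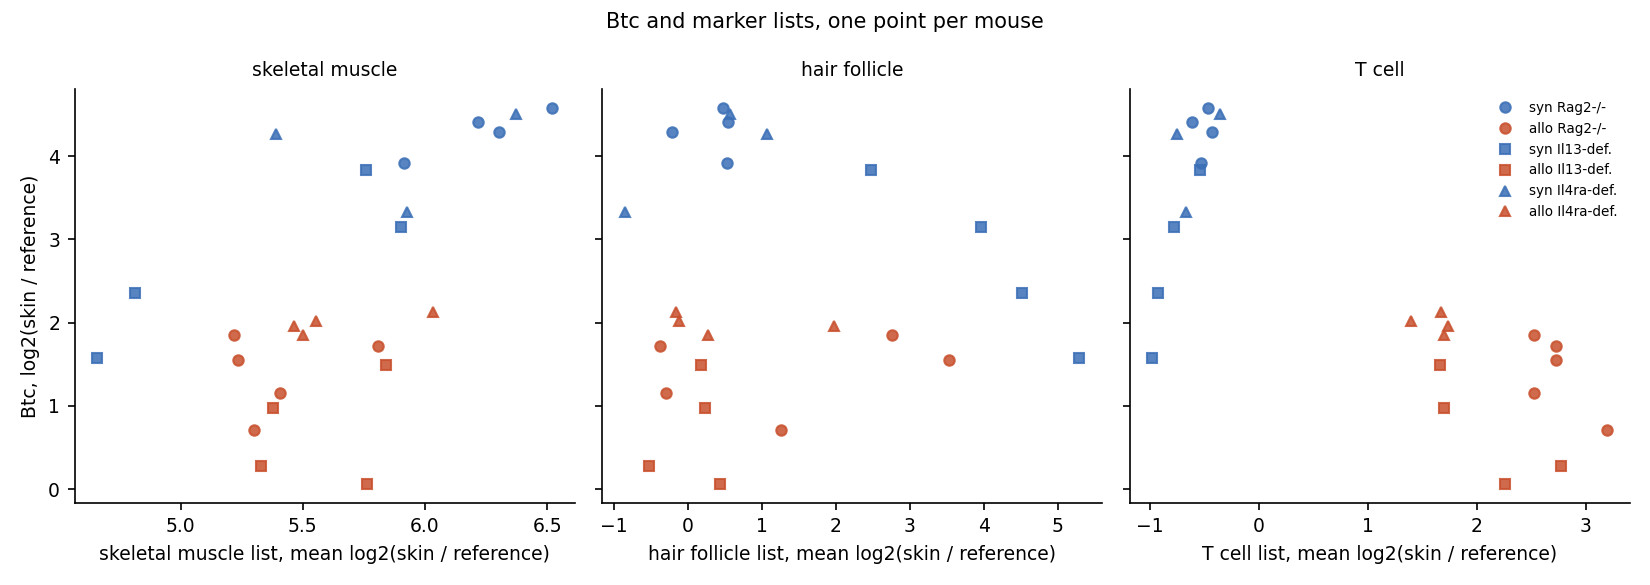
Btc against 3 marker lists: log2 of skin over reference for Btc on the vertical axis and the list mean on the horizontal axis, 1 point per mouse, blue syn and red allo, circles Rag2-/-, squares Il13-deficient and triangles Il4ra-deficient. The syn mice and allo mice form separate clouds along the T cell axis, and 3 of the 4 syn Il13-deficient squares have the highest hair follicle means of all mice.

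Of the 7 tested members, 2 fell and 0 rose with allogeneic cells in Il13-deficient recipients (Btc and Egfr), where 16.3% of all 14783 genes were called and 7.11% were called lower. The median difference of the 7 was -0.45, against -0.05 over all genes. In Il4ra-deficient recipients 1 of 7 fell (Btc), with 9.21% of all genes called and 3.31% called lower, and a median of -0.16 against -0.05. For the difference between these donor effects, 0 of 7 members and 0% of all genes were called by limma; at an unadjusted p under 0.05 the test passed for 0 members and 12.4% of all genes. Between allo mice of the 2 recipients 0 of 7 members and 0% of all genes were called (1 member and 4.23% of all genes unadjusted), and between syn mice 0 of 7 with 1.22% of all genes (1 member and 20.7% of all genes unadjusted). In Rag2-/- recipients 3 of 7 (Btc, Egfr and Erbb3) were lower with no overlap, where 28.3% of all genes had no overlap and 15.6% were lower in that way, and nothing is read from this count.

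**Figure D3:**
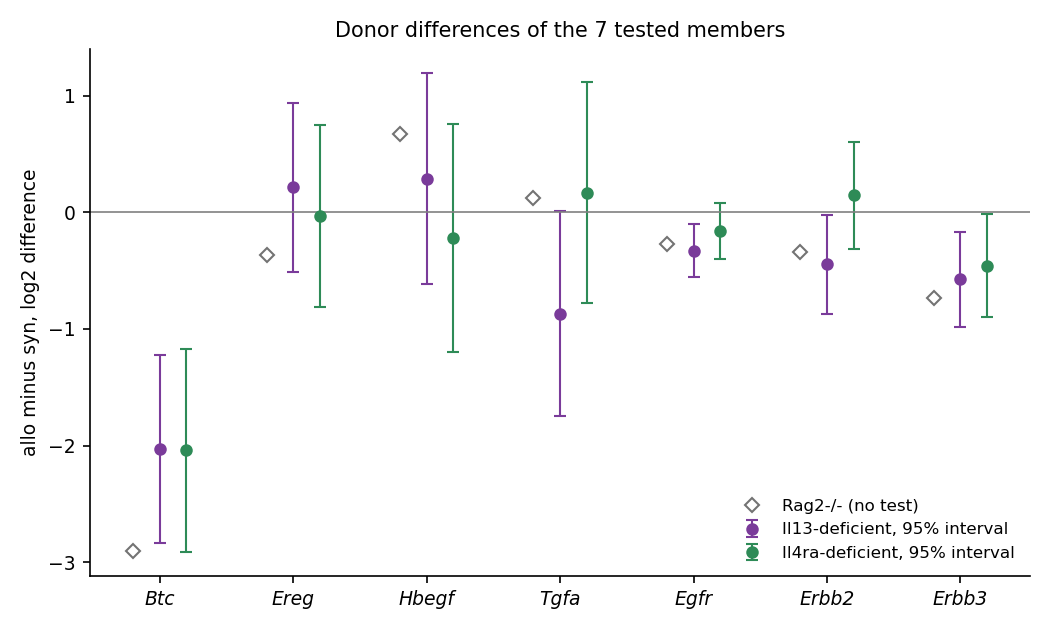
Donor differences of the tested members: allo minus syn log2 difference on the vertical axis, with 95% intervals for Il13-deficient and Il4ra-deficient recipients and open diamonds without error for Rag2-/- recipients, which were not tested. Btc lies near -2 or lower in all 3, and the intervals of Ereg, Hbegf and Tgfa include 0.

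The other ligands showed no change past the threshold. Tgfa, a keratinocyte growth signal, was highest in the syn Il13-deficient mice at 1.24, 2.19, 2.34 and 3.11 (2.22 ± 0.77 SD, n = 4), and the other groups had means of 1.12 to 1.47. Its donor difference was -0.87 there (SE 0.42, adjusted p = 0.178) and 0.17 in Il4ra-deficient mice (SE 0.46, adjusted p = 0.863), and the difference between these was 1.03 (SE 0.62, adjusted p = 0.507). Its highest mouse was 6234, which had the lowest Btc of the syn mice and the highest hair follicle mean.

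Epgn, which stands next to Ereg, was well above the reference in the skin of most mice, with a median of 3.75 and a range of 1.81 to 7.17 over 21 mice. Its 2 highest values were those of allo Rag2-/- mouse 5704 (6.44) and allo Il13-deficient mouse 6224 (7.17). The group means ran from 3.22 ± 0.83 (SD, n = 4) in syn Rag2-/- to 4.24 ± 1.67 (SD, n = 5) in allo Rag2-/- mice, with overlap, and the 1 syn Il4ra-deficient mouse measured had 4.59. Both of those high allo mice also had the highest Hbegf.

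Hbegf, a ligand that keratinocytes make during wound repair, was below the reference in 22 of 24 mice. In allo Rag2-/- mice it was -1.62, -1.34, -1.33, -1.26 and 0.20, and in allo Il13-deficient mice -2.10, -1.70, -1.66 and 0.76. In each group 1 mouse stood far above the rest, 5704 and 6224. The syn mice lay between -2.12 and -1.32 and the allo Il4ra-deficient mice between -2.08 and -1.56. Donor differences were 0.29 (SE 0.43, adjusted p = 0.714) in Il13-deficient and -0.22 (SE 0.47, adjusted p = 0.82) in Il4ra-deficient recipients, and without mouse 6224 the former was -0.36. Neither direction was past the threshold.

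Ereg gave little information. Its 2 probes had a shared, dim value on 27 and 21 of 28 arrays, and the group means lay between -0.28 and 0.33. Its donor differences were 0.21 (SE 0.35, adjusted p = 0.737) and -0.03 (SE 0.38, adjusted p = 0.974) in Il13-deficient and Il4ra-deficient recipients. A change in Ereg was not detectable with these probes.

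**Figure D4:**
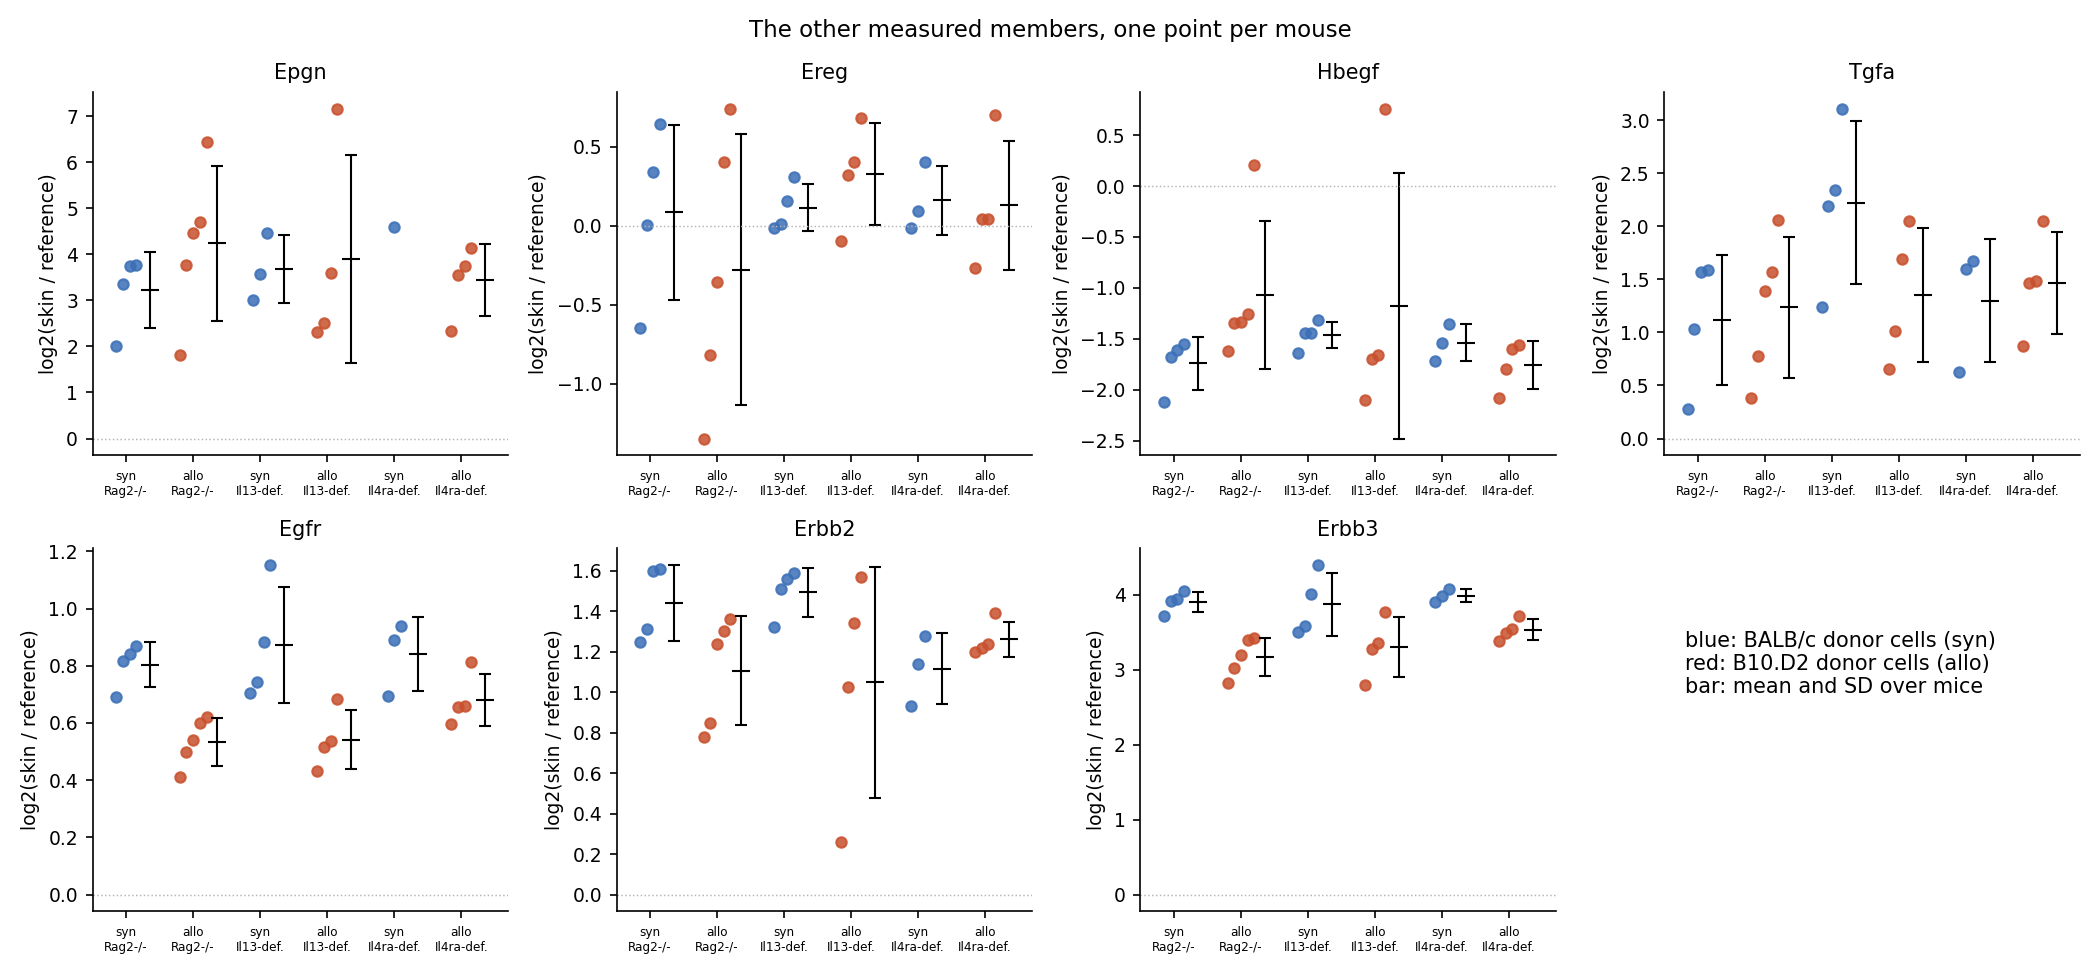
The other measured members by group: log2 of skin over reference on the vertical axes, which differ in range between panels, 1 point per mouse (blue syn, red allo), with mean and SD. Erbb3 is lower in allo mice with little overlap, while Hbegf has 2 allo mice, at 0.20 and 0.76, above all others.

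Among the receptors, Erbb3 was lower in allo mice of all 3 recipients, by smaller steps than Btc. Syn Rag2-/- mice had 3.72, 3.92, 3.95 and 4.05, and allo Rag2-/- mice 2.82, 3.03, 3.20, 3.40 and 3.42, without overlap. In Il13-deficient recipients syn mice had 3.50, 3.59, 4.02 and 4.41 and allo mice 2.79, 3.28, 3.35 and 3.77, with overlap, and the difference was -0.58 (SE 0.20, adjusted p = 0.0501). Syn Il4ra-deficient mice had 3.91, 3.98 and 4.08 and allo mice 3.38, 3.49, 3.54 and 3.72, all lower, with a difference of -0.46 (SE 0.21, adjusted p = 0.187). The Il13-deficient difference lay at the threshold and passed under some other settings, for instance without mice 6229 and 6234 (-0.91, adjusted p = 0.00883). Of 5 probes, 1 carries the value, and it had no shared dim value on any array; the remaining 4, dim wherever they were measured, turned the Il13-deficient difference to 0.13 when averaged in.

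Erbb2, the receptor without a ligand, was 1.32, 1.51, 1.56 and 1.59 in syn and 0.26, 1.02, 1.34 and 1.57 in allo Il13-deficient mice. The groups overlapped, and the low allo mouse was 6224. The difference was -0.45 (SE 0.20, adjusted p = 0.15). Without 6224 it was -0.18, without 6226 it was -0.62 and passed (adjusted p = 0.0338), and with all probes averaged it was 0.06. In Il4ra-deficient mice it was 0.15 (SE 0.22, adjusted p = 0.737), and in Rag2-/- mice -0.34 with overlap.

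Egfr fell slightly in Il13-deficient recipients, and its probes did not move together. Over 5 probes, syn mice had 0.71, 0.74, 0.88 and 1.15 and allo mice 0.43, 0.52, 0.54 and 0.68. The groups were separate, by little, and Egfr fell by 0.33 (SE 0.11, adjusted p = 0.0414). In Il4ra-deficient mice the difference was -0.16 (SE 0.12, adjusted p = 0.43) with overlap, and in Rag2-/- mice -0.27 without overlap. The Il13-deficient call ended without mouse 6223, 6224, 6226, 6229 or 6234, and without both 6229 and 6234 the difference was -0.18 (adjusted p = 0.328). It ended as well with only those 2 groups fitted (adjusted p = 0.33), all probes averaged (0.216), quantile normalization (0.0573) or the number series as a block (0.0531). The call also ended with exact 0 kept (adjusted p = 0.125), where the dim probe A_52_P5855, otherwise left out, entered the mean. With repeated dim values not measured it ended too (-0.05, adjusted p = 0.84). There the Egfr value came from probe A_51_P392242 alone, so that setting changed the probes and does not show that dim values carried the fall.

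Read probe by probe, 2 of the 5 carried the Egfr fall. In Il13-deficient recipients A_52_P106259 fell by 0.54 (SE 0.16, adjusted p = 0.0371 over all probes) and A_52_P175190 by 0.79 (SE 0.19, adjusted p = 0.00771). Both were lower in Rag2-/- mice too, by 0.75 and 0.80 without overlap. In Il4ra-deficient mice they differed by -0.47 (adjusted p = 0.12) and -0.62 (adjusted p = 0.078). The pair A_51_P392242 and A_52_P56471, which the annotation lists under the same transcript record, differed by -0.05 to 0.15 over the 3 recipients (-0.05 and 0.04 in Il13-deficient mice, adjusted p = 0.88 and 0.927). A_52_P674338, which shares its record with A_52_P106259, was dim on 17 of 28 arrays and differed by -0.31 (adjusted p = 0.454). The sources used here give no probe positions, so which transcripts each probe reads is unknown, and a change of Egfr as a whole is not shown.

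**Figure D5:**
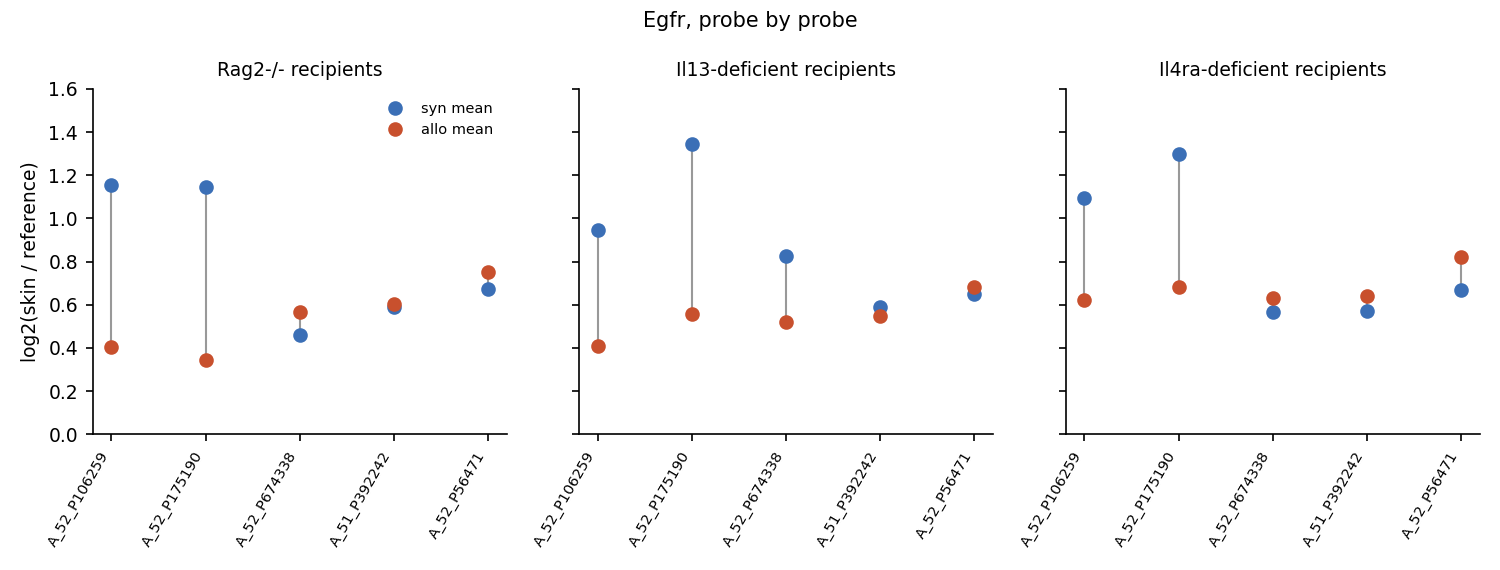
Egfr probe by probe: mean log2 of skin over reference of syn (blue) and allo (red) mice for the 5 probes used, in 3 recipients, with grey lines joining the means. A_52_P106259 and A_52_P175190 have lower allo means in every panel, while A_51_P392242 and A_52_P56471 have nearly equal ones.

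The other genes of the pathway came from a list of 50, of which 41 could be tested. In Il13-deficient recipients 3 rose and 4 fell, with a median difference of -0.08 against -0.05 over all genes. In Il4ra-deficient recipients 2 rose and 0 fell, with a median of -0.02 against -0.05. Both counts lie near or below the 16.3% and 9.21% called among all genes. In Rag2-/- recipients 9 were higher and 4 lower without overlap, where 28.3% of all genes had no overlap, and nothing is read from this count.

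Among the remaining ligands and receptors, Erbb4, a receptor for Btc and the neuregulins, rose in Il4ra-deficient recipients, from -0.44, -0.12 and -0.01 in syn to 0.27, 0.48, 0.49 and 0.50 in allo mice (0.63, SE 0.20, adjusted p = 0.0495). That call ended when any of the 7 mice was left out (adjusted p = 0.0555 to 0.216), and with exact 0 kept the difference was 0.21 (adjusted p = 0.307). In Il13-deficient recipients Erbb4 differed by 0.36 (SE 0.18, adjusted p = 0.202). Egf, the ligand that names the family, differed by 0.19 (adjusted p = 0.811) in Il13-deficient and -0.62 (adjusted p = 0.433) in Il4ra-deficient mice. The neuregulin genes Nrg1 (0.41 and -0.02) and Nrg4 (-0.07 and -0.70), ligands of Erbb4, did not pass in either, with Nrg4 measured in 2 of the 3 syn Il4ra-deficient mice. Nrg2 and Nrg3 were measured in 11 mice each and were not tested.

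Of the 4 genes for ligand release, Adam17, whose protease frees several of these ligands, rose in Il13-deficient recipients from 0.27 ± 0.14 (SD, n = 4) to 1.18 ± 0.46 (SD, n = 4), by 0.91 (SE 0.22, adjusted p = 0.00656). In Il4ra-deficient recipients it differed by 0.64 (SE 0.24, adjusted p = 0.101). Adam10, Rhbdf1 and Rhbdf2 did not pass in either. The difference of the Adam17 effects was -0.27 (SE 0.33, adjusted p = 0.765). ADAM17 also cuts tumour necrosis factor and is made by many cells, immune cells among them.

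The relay and feedback genes moved in both directions. Grb2, an adaptor that links the receptor to Ras and is abundant in blood cells, rose in Il13-deficient recipients by 0.75 (SE 0.13, adjusted p = 0.000385). Gab1, a docking protein of the receptor, fell by 0.68 (SE 0.16, adjusted p = 0.0052). Gab1 did not pass with exact 0 kept (-0.32, adjusted p = 0.177) or all probes averaged (-0.76, adjusted p = 0.132). Spry1, a feedback inhibitor, fell by 0.78 (SE 0.25, adjusted p = 0.0375). That call did not hold without mouse 6224 (-0.49), 6225 (-0.65) or 6229 (-0.76). Of 13 inhibitor genes tested this was the only call in the 2 tested donor comparisons.

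Of 9 genes known to be induced by the pathway, Plaur, the urokinase receptor gene, which macrophages also make, rose in both. It went from -2.19 ± 0.14 (SD, n = 4) to 0.23 ± 0.76 (SD, n = 4) in Il13-deficient recipients (2.42, SE 0.25, adjusted p = 2.91e-07) and from -2.16 ± 0.27 (SD, n = 3) to -0.24 ± 0.13 (SD, n = 4) in Il4ra-deficient ones (1.93, SE 0.26, adjusted p = 5.03e-05). The transcription factor genes Etv4 and Egr1 fell in Il13-deficient recipients, by 1.49 (SE 0.45, adjusted p = 0.0253) and by 1.03 (SE 0.26, adjusted p = 0.00768). Etv4 was measured in 3 of the 4 allo mice there. Its call ended without mouse 6229 (-1.17), 6234 (-1.16) or 6232 (-1.10), and the Etv4, Egr1, Adam17 and Spry1 calls all ended without 6229 and 6234 together. With only the 2 Il13-deficient groups fitted, the Grb2, Gab1, Adam17, Spry1, Etv4 and Egr1 calls ended (adjusted p = 0.0507 to 0.253), and the Plaur call did not (adjusted p = 0.00506). The macrophage list differed by 3.15 and 1.88 in these 2 recipients, and its part in the Plaur rise was not tested.

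The genes most like Btc over the 24 mice, among 11851 genes measured in all of them, were Cdadc1 (Pearson r = 0.92), the malic enzyme gene Me1 (0.904), the tropomyosin gene Tpm1 (0.901), Mmaa (0.899), the pyruvate dehydrogenase gene Pdhb (0.896), Eml1 (0.896), the clock gene Arntl (0.894) and Arrdc3 (0.894). The mice fall into 2 donor groups, so such an r holds the donor difference together with the spread within groups. The share of each was not computed. Me1, for instance, was 1.82 ± 0.10 (SD, n = 4) under syn and 0.72 ± 0.31 (SD, n = 5) under allo donor cells in Rag2-/- recipients. With each group mean subtracted, the nearest were the actin-capping gene Tmod1 (0.902), the muscle kinase gene Srpk3 (0.897), Eml1 (0.889), the phosphorylase kinase gene Phkb (0.873) and Kctd12 (0.861). Btc and each of these genes spread most within the syn Il13-deficient group (SD 1.14 for Tmod1, 1.66 for Srpk3, 0.98 for Btc). That group therefore weighs heavily in these r, which were not computed without it. In Il13-deficient recipients the means of Tmod1, Srpk3 and Kctd12 were higher under allo cells, unlike Btc, and those of Eml1 and Phkb lower. These values are a description, and mice of 1 group share their donor and recipient genotype. Among the family, Erbb3 was nearest to Btc (0.797), followed by Egfr (0.521) and Erbb2 (0.424), with Ereg (0.077), Tgfa (-0.087) and Hbegf (-0.369) further away.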

How the data were processed

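Skin RNA carried Cy3 and the reference RNA Cy5, per the labels. The deposited values, made by the authors, were taken as log2 ratios of reference over skin; how they corrected background, normalized or filtered is not stated in those labels. The sign was turned, and the direction rests on the dyes and on keratinocyte genes lying above 0. The log base is not stated. Values ran from -9.60 to 10.7, and 11753 exceed the 4.82 that the ratio of 16-bit signals can reach in log10. They stay within the limits of 16.0 for log2 and 11.1 for the natural log, so the range alone does not settle the base. Spacings between recurring values that a ratio of small whole numbers and its inverse would give (2, 1.5 and 1.33) were found 60, 54 and 47 times for log2, 10, 31 and 29 times for the natural log and 33, 53 and 37 times for log10, and log2 was used. An exact 0, 2.41% to 36.8% of an array, was taken as not measured, which is a reading of the values. Between 40.9% and 54.4% of values were shared by at least 30 probes of the array. Array medians lay between -0.039 and 0.144. Precision is limited by the number of arrays.

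Arrays of the same mouse were averaged (3 for 5702, 2 each for 5703 and 6232). A gene's value is the mean of its most complete probes. Mouse 5718 is labelled IL14Ra and was taken as Il4ra-deficient. For 14783 genes, those with values from 2 or more mice in every group, limma 3.58.1 (R 4.3.3) fitted 6 group means (two-sided, Benjamini-Hochberg over all genes, threshold 0.05). The fit was also run on simulated data with independent normal noise, which held no number series and no shared dim values. The members, gene lists and alternatives were chosen with earlier results of these data known. All members are named, and of the pathway list up to 4 called genes per direction and all ligands and receptors. The likest genes to Btc are the 8 with the highest r over mice and the 5 after subtracting group means. Promoters were matched by symbol for 6 of 9 members.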

Additional observations from a re-analysis of the deposited data

Results flagged for a closer look

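Over 39 combinations of a member and a group with 4 or 5 measured mice, 2 values stood far from the rest of their group, where chance gives about 1 in 20. Hbegf was 0.204 in allo Rag2-/- mouse 5704, against -1.62 to -1.26 in the other 4 mice, and 0.762 in allo Il13-deficient mouse 6224, against -2.10 to -1.66 in the other 3. The same 2 mice had the highest Epgn (6.44 and 7.17) and the highest Nrg1 (-0.06 and 0.64) of their groups. They had the lowest Lrig1 (-1.60 and -1.10) and Lrig3 (0.21 and -0.14) of all mice, both listed here among the inhibitor and feedback genes. Btc was 0.71 and 0.27 in them.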

How the results depend on the processing

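The fall of Btc kept its sign under every alternative run. In Il13-deficient recipients it ran from -2.41 to -1.66 with each mouse left out and from -2.79 to -1.22 over 12 other settings, and lost its call with all probes averaged (-1.74) and with only the 2 groups fitted (-2.03). In Il4ra-deficient recipients it ran from -2.39 to -1.80 and from -2.09 to -1.06, and lost its call with all probes averaged (-1.86). The count of members called in Il13-deficient recipients, 2, (Btc and Egfr) was 1 with exact 0 kept or the number series as a block, 0 with all probes averaged or only the 2 groups fitted, and 1 to 3 with a mouse left out. It was 3, with Erbb3 added, with centring, with only genes measured in all mice and with the second array of 6232 alone. It stayed at 2 with quantile normalization, with repeated dim values not measured and without 6229, 6234 or both, where Egfr lost its call and Erbb3 gained one. In Il4ra-deficient recipients the count, 1, was 0 with all probes averaged. Between syn mice of these recipients it was 0 to 1 with a mouse left out. Of the pathway list, 7 called in Il13-deficient recipients became 4 with exact 0 kept, 4 without mice 6229 and 6234, 1 with only the 2 groups fitted, and 5 to 10 with a mouse left out. The 2 called in Il4ra-deficient recipients became 1 with centring, exact 0 kept, all probes averaged, the block or quantile normalization, 1 with any mouse left out, and 5 with only the 2 groups fitted. Egfr in Il13-deficient recipients turned to 0.037 with probe A_52_P56471 alone. Keeping exact 0 changed the probes averaged for Btc and Egfr, and leaving out repeated dim values changed those for Egfr. The causes of these changes were not otherwise tested. Fitting only the compared groups leaves fewer mice for the spread and also takes the spread from those groups alone. Using only the second array of mouse 6232 was chosen after seeing the data. The block could not be fitted where Il4ra-deficient and Il13-deficient mice are compared, since they share no number series. No paired analysis was possible because replicate numbers are mouse numbers, which the groups do not share. Dim values limit Ereg, and allo Btc levels, most.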

Other observations

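Mice 5704 and 6224 stood apart in Hbegf, and the 8 genes most like Hbegf over the 24 mice were picked after these values were seen. In order of r they were S100a8 (0.896), Fbxl5 (0.894), Hif1a (0.89), Arc (0.872), Gdap2 (0.872), Vegfa (0.858), Tinagl1 (0.845) and Zfhx2os (0.837). S100a8, whose protein neutrophils and stressed keratinocytes make, was 5.21 and 5.58 in the 2 mice, against -1.48 to 2.12 in the other 22. Hif1a, the oxygen-sensing transcription factor gene, was 1.76 and 1.85 against -0.41 to 1.04, and Fbxl5, an iron-sensing gene, 1.67 and 2.38 against 0.11 to 1.46. Vegfa, the vessel growth gene, was below the reference in them too, at -0.28 and -0.54 against -1.97 to -1.28. Arc was 0.78 and 0.55 against -1.78 to -0.58, and Zfhx2os 2.72 and 2.51 against -0.37 to 0.94. Gdap2 was 0.67 and 0.99 against -0.72 to 0.32, and Tinagl1 0.99 and 1.39 against -1.60 to -0.20. Without the 2 mice r with Hbegf was 0.685 for Fbxl5, 0.581 for Gdap2, 0.562 for Hif1a, 0.56 for S100a8 and 0.366 or lower for the other 4, over 22 mice.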
